A study of Mus musculus with 6 samples.

Results

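The nuclear oxidative phosphorylation genes are those whose symbols name a subunit of the 5 protein complexes of the mitochondrial inner membrane: Nduf subunit genes of complex I, Sdha to Sdhd of complex II, Uqcr genes of complex III, Cox4 to Cox8 genes of complex IV and Atp5 genes of complex V. They were chosen by symbol alone, and 83 of the 19954 genes in the deposited table are members (37, 4, 8, 17 and 17 by complex). Atp5s and Atp5sl match by symbol although their proteins are related to complex assembly and not to ATP synthase subunits. Transcripts were counted by UMI (unique molecular identifier, a tag that marks each captured RNA molecule) in single nuclei of mouse spinal cord, labelled lumbar although an extraction note names the injury site, from wild-type C57BL/6 mice. A severe thoracic contusion had left every mouse with paralysed legs, and all spent 30 min on a treadmill before collection. Of 6 samples, 3 came from mice walking under targeted epidural electrical stimulation (TESS) and 3 from mice without it (CON, labelled paralyzed). The series text places the stimulation in the presence of agonists of a serotonin and a dopamine receptor. It does not say if CON mice were given these agonists too. The labels give neither the age of the mice nor how many stand behind a sample, so p-values measure the spread between samples, which may be partly technical.

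The members' proteins, with those encoded by mitochondrial DNA, form the respiratory chain and ATP synthase. Complexes I and II pass electrons from nutrients to ubiquinone, complex III hands them to cytochrome c, and complex IV gives them to oxygen. Protons pumped on the way drive ATP synthase, complex V. In spinal cord this pathway supplies most of the ATP that neurons use to restore ion gradients after firing, while glia also rely on glycolysis. A nucleus holds newly made transcripts of these genes and not the mature cytoplasmic pool, so the counts are not levels of whole cells. Some RNA from outside the nucleus was counted too, since mitochondrial DNA supplied 0.141% to 0.311% of UMIs per sample. How much of the members' counts came from outside the nucleus was not measured.

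Transcription of many members is known to be driven by nuclear respiratory factor 1 (NRF1), ETS-family factors such as GABP, YY1 and Sp1, so the stretches before the start of the 3 members that stood out in glia are shown, from RefSeq (GRCm38.p6). Each is on the minus strand, is written 5′ to 3′ and ends where the first annotated transcript begins. Ndufa4 lies at chr6:11907498-11907700, Atp5g1 at chr11:96075671-96075881 and Cox6a1 at chr5:115348982-115349208, and capitals mark motif matches.
Ndufa4: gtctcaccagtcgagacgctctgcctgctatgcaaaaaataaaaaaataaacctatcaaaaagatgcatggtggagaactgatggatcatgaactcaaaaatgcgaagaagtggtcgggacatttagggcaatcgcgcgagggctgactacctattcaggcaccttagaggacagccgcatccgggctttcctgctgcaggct
Atp5g1: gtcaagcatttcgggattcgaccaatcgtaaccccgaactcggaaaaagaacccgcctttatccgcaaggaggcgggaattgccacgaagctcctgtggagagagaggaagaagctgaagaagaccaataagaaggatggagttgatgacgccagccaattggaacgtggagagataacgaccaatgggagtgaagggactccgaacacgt
Cox6a1: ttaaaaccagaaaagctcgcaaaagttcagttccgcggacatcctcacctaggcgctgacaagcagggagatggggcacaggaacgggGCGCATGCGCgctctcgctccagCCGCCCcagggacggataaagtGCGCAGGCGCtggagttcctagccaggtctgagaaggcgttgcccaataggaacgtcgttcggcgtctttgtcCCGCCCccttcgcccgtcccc
The search, on both strands of 250 bases before and 50 after each start, used GCGCANGCGC for NRF1, CCGGAAG for ETS factors, AAGATGG for YY1 and GGGCGG for the GC box. None of the letters occurred in the printed Ndufa4 and Atp5g1 stretches. For Cox6a1, distances count from the start used in the search, which lies beyond the end of the printed stretch. Cox6a1 held 2 NRF1 matches, 162 and 117 bases before that start, and 2 GC boxes, 139 and 44 bases before it. An ETS match 16 bases before the Cox6a1 start lies outside the printed stretch. Of the 66 members with a window, 17 (25.8%) held the NRF1 letters, against 11.1% of the 9979 genes tested in all nuclei that have a window. The ETS letters were in 16 (24.2%) members against 18.6% of those genes, the YY1 letters in 10 (15.2%) against 8.33%, and the GC box in 26 (39.4%) against 68.2%. Over all 27025 genes with a window the shares were 5.19%, 9.93%, 7.28% and 38.2% in the same order. These are letter matches and not binding sites.

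The libraries held 2192 to 3780 nuclei and 1582104 to 4037976 UMIs each, and the members together had 145898 UMIs. The authors' annotation names 8837 oligodendrocytes, 6035 neurons, 1656 microglia, 1091 astrocytes, 674 oligodendrocyte precursor cells (OPC) and 221 endothelial nuclei, and each marker of these types was highest in its own type. RNA of other types was present in every class: Snap25, a neuronal marker, had 935 CPM (UMIs scaled to a common library total) in neurons and 286 to 660 CPM in the other types, and Mbp, a myelin marker, had 4068 CPM in oligodendrocytes and 299 to 1366 CPM in the others (pooled over samples). The part of free RNA in the members' levels was not tested. The series text states 20484 nuclei and 6171 neurons, beside 18514 and 6035 in the table used here. The endothelial class also held pericyte markers, at 2735 to 3996 CPM in TESS and 3015 to 4008 CPM in CON samples. TESS 2 and TESS 3 were the shallowest per nucleus, with median UMI counts of 478 and 424, against 598 in TESS 1 and 544.5 to 707 in CON samples. The metadata put TESS 1, CON 1 and CON 2 in batch 3, while TESS 2, TESS 3 and CON 3 each sit alone in a batch, so outside batch 3 batch and group cannot be told apart. What a batch number stands for is not given. A barcode sequence was shared with another library in 411 nuclei (2.22%). Tests used edgeR's quasi-likelihood F test on counts summed per sample and cell type, and calls were made where p, adjusted by Benjamini-Hochberg over all genes tested in that type, was below 0.05. Differences are log2 of TESS over CON, with a standard error (SE), and levels are CPM over all UMIs of the cell type in a sample.

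Relative to all RNA, neurons held the least oxidative phosphorylation transcript and endothelial nuclei the most. The members made up 0.658 ± 0.0875% of UMIs in neurons, 0.857 ± 0.0933% in OPC, 0.963 ± 0.180% in oligodendrocytes, 1.05 ± 0.137% in astrocytes, 1.17 ± 0.250% in microglia and 1.44 ± 0.244% in endothelial nuclei (SD, n = 6 samples). Sample ranges of neighbours in this order overlapped, except that every neuron value (0.506% to 0.726%) lay below every OPC value (0.767% to 1.02%). The share of UMIs from mitochondrial DNA was also lowest in neurons and highest in endothelial nuclei. Its means over 6 samples were 0.165% in neurons, 0.267% in OPC and 0.320% in oligodendrocytes. They were 0.298% in astrocytes, 0.429% in microglia and 0.893% in endothelial nuclei. The part of RNA from outside the nucleus in the order of the members' shares was not tested. Per nucleus the order of the members' levels differed. Member UMIs numbered 11.9 to 29.9 per endothelial nucleus, 7.57 to 17.8 per neuronal nucleus and 2.78 to 6.08 per oligodendrocyte nucleus across samples. Of the 83 members, 48 were highest in endothelial nuclei, 18 in microglia, 13 in astrocytes, 2 in OPC, 1 in neurons and 1 in oligodendrocytes. How often any gene was highest in each type was not counted, and the endothelial class is the smallest (221 nuclei). These counts therefore cannot be read as a trait of the members. Cell types were defined by the authors from the same counts, so these levels are a description with no test.

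Among the 58 members with at least 1000 UMIs, 39 were lower in neurons than in oligodendrocytes in all 6 samples, and 3 were higher in neurons in all 6. The 3 were Ndufs4 (155 against 94.9 CPM, means of 6 samples), an accessory subunit of complex I, Uqcrc1 (107 against 85.2 CPM), a core subunit of complex III, and Atp5o (149 against 110 CPM), which links the head of ATP synthase to its stalk. They were picked after their values were seen, and the same counts over all genes were not made. Ndufa4, first assigned to complex I and now placed in complex IV, had nearly the same level in both, at 327 ± 86.8 CPM in neurons and 341 ± 112 CPM in oligodendrocytes (SD, n = 6). Cox6a1, the widely expressed form of cytochrome c oxidase subunit 6a, had 177 ± 27.1 CPM in neurons, 278 ± 69.5 CPM in oligodendrocytes and 392 ± 93.7 CPM in endothelial nuclei. Atp5g1, which encodes subunit c of the ATP synthase rotor, ranged from 127 ± 39.8 CPM in OPC and 129 ± 16.1 CPM in neurons to 227 ± 84.5 CPM in microglia, and these ranges overlapped.

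Most tissue isoforms were sparsely counted, and those known from hypoxia fell largely in the endothelial class. Ndufa4l2, a hypoxia-inducible relative of Ndufa4, had 102 UMIs in all, of which 94 fell in the endothelial class, 4 in neurons and 3 in oligodendrocytes. Cox4i2, the hypoxia-inducible form of subunit 4, had 36 of its 66 UMIs in the endothelial class, while Cox4i1 had 9319 UMIs across all types. In the endothelial class both were found in all 6 samples. That class also held pericyte markers, and it was not tested which of its nuclei carried these isoforms. Ndufa4l2 in the endothelial class had 308, 345 and 58.6 CPM in TESS samples, from 8, 12 and 2 UMIs, and 563, 451 and 291 CPM in CON samples, from 43, 13 and 16 UMIs. Its log2 difference of -1.01 ± 0.48 (SE) did not pass (edgeR adjusted p = 0.319). The muscle forms had few UMIs: Cox6a2 and Cox8b had 9 UMIs each and Cox7a1 had 48, beside 4105, 4489 and 2360 for Cox6a1, Cox8a and Cox7a2. Cox7a2l had 881 UMIs. Cox6b2, a testis-enriched form, had 111 beside 3184 for Cox6b1. Cox7b2 had 66 UMIs, 53 of them in neurons, beside 3177 for Cox7b. Of the 3 genes for subunit c, Atp5g1 and Atp5g3 had 2641 and 1823 UMIs and Atp5g2 had 188. UMI counts were not scaled by gene length and are not compared as transcript numbers.

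In the comparison the study was built on, stimulated walking against paralysis, oxidative phosphorylation transcripts were lower on average in TESS in every cell type, but the separation of the samples varied by type. In all nuclei the members made up 0.838%, 0.594% and 0.695% of UMIs in TESS 1, 2 and 3, and 0.831%, 0.809% and 0.921% in CON 1, 2 and 3. The groups overlapped, because TESS 1 lay among the CON samples. Astrocytes, microglia and endothelial nuclei were the types in which every TESS sample lay below every CON sample. In endothelial nuclei the values were 1.25%, 1.30% and 1.14% in TESS and 1.68%, 1.73% and 1.52% in CON. In microglia they were 1.14%, 0.930% and 0.916% in TESS and 1.18%, 1.23% and 1.60% in CON. In astrocytes they were 1.08%, 0.871% and 0.907% in TESS and 1.12%, 1.10% and 1.23% in CON. In oligodendrocytes TESS samples had 1.00%, 0.717% and 0.816% and CON samples 1.00%, 1.00% and 1.24%, and in neurons TESS samples had 0.726%, 0.506% and 0.601% and CON samples 0.705%, 0.683% and 0.724%. TESS 1 thus reached the CON range in both large classes. OPC also overlapped, at 0.767% to 0.875% in TESS and 0.839% to 1.02% in CON.

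**Figure D1:**
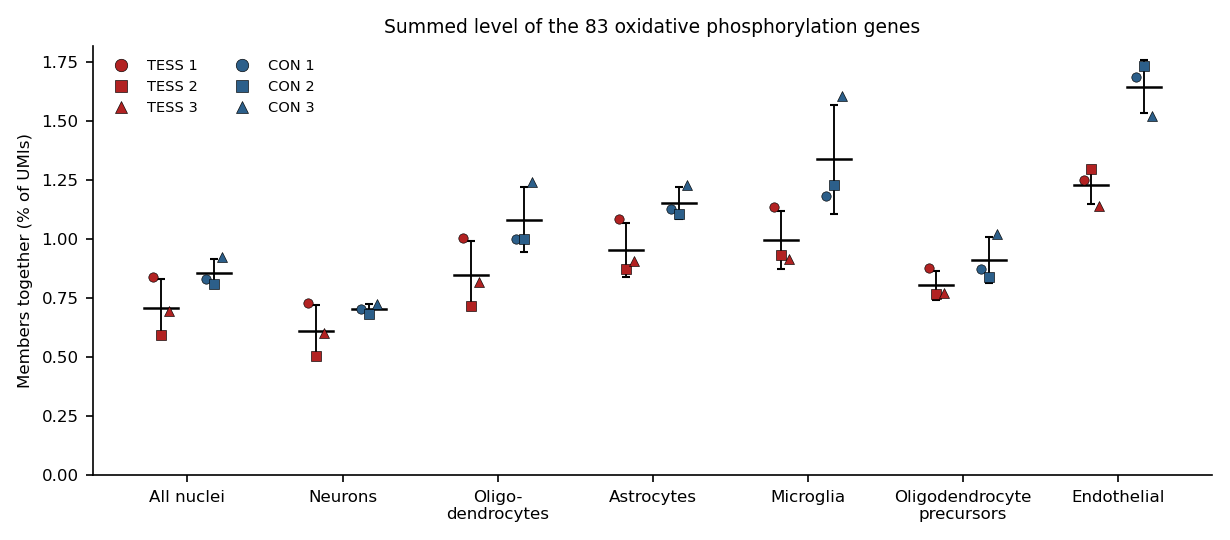
The y axis gives the share of all UMIs of a cell type that fell on the 83 members, in percent. Points are samples, with TESS left of CON, and bars show the mean and SD of 3 samples. TESS 2 and TESS 3 lie below every CON sample in each class, and TESS 1 lies below every CON sample in astrocytes, microglia and endothelial nuclei.

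TESS 2 and TESS 3, the low samples, were also the 2 shallowest, while CON 3, with the highest share, was the shallowest of the CON samples. The share of UMIs from mitochondrial DNA, a separate measure in the metadata, did not follow the groups in all nuclei: it was 0.311%, 0.141% and 0.277% in TESS and 0.167%, 0.192% and 0.298% in CON. Blood markers (Hbb-bs, Hba-a1, S100a8, S100a9 and Ptprc, all 5 detected) summed to 172 to 295 CPM in TESS and 100.2 to 176 CPM in CON in all nuclei, which overlap. The part of depth and blood RNA in the result was not tested. In bulk sums of a cell type, fewer expressing nuclei and less RNA per nucleus cannot be told apart.

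Oligodendrocytes, the myelin-forming cells, held 3 of the 4 calls, all lower in TESS. Ndufa4 had 287, 199 and 261 CPM in TESS samples and 385, 407 and 507 CPM in CON samples. It fell by 0.84 ± 0.17 (SE) on the log2 scale (edgeR adjusted p = 0.0132). Atp5g1 had 146, 104 and 101 CPM in TESS samples and 195, 169 and 239 CPM in CON samples. It fell by 0.79 ± 0.19 (adjusted p = 0.0305). Cox6a1 had 239, 212 and 209 CPM in TESS samples and 312, 308 and 386 CPM in CON samples, and fell by 0.65 ± 0.16 (adjusted p = 0.0425). In all 3 genes every TESS sample, TESS 1 included, lay below every CON sample. Called genes were 3 of 76 members tested, where 0.58% of the 8796 genes tested were called lower. At unadjusted p below 0.05, 28 members were lower and 1 was higher, against 7.13% of all genes lower. In 19 of 76 members every TESS sample lay below every CON sample, against 8.13% of all genes, and the reverse held for 3. The next members by p were not called: Cox8a, a small subunit of complex IV named here for its p after its values were seen, had a log2 difference of -0.67 ± 0.18 (adjusted p = 0.0531). Cox7c, another complex IV subunit, went the other way without passing, at 69.8, 77.9 and 81.6 CPM in TESS and 47.0, 47.5 and 48.8 CPM in CON (0.61 ± 0.21, adjusted p = 0.164). A small RNA gene overlaps Cox7c, and since the strand of counting is not given its reads are uncertain in origin.

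In batch 3 alone, with TESS 1 compared with the CON 1 and CON 2 pair, the oligodendrocyte differences kept their sign and were smaller: -0.52 for Ndufa4, -0.37 for Atp5g1 and -0.43 for Cox6a1, none of them called. Batch as a term gives the same comparison, since samples alone in a batch cannot inform the group difference. Both settings are counted among the 13 alternatives and are not separate checks. Without TESS 3, CON 2 or CON 3 no oligodendrocyte member was called. Without TESS 2 only Ndufa4 was, without CON 1 the count was 2, and without TESS 1 it was 5. Over all genes, lower and higher calls were 5 and 27 of 9235 without TESS 3 and 11 and 27 of 9223 without CON 2. They were 40 and 98 of 9173 without CON 3 and 40 and 72 of 9259 without TESS 2. They were 30 and 51 of 9187 without CON 1 and 49 and 115 of 9305 without TESS 1. The changes in member counts are therefore not read as a result about the members. Over 13 alternatives the direction of all 3 held, and the call held for Ndufa4 in 8 (adjusted p = 0.000118 to 0.474), Atp5g1 in 6 (0.00343 to 0.699) and Cox6a1 in 4 (0.0118 to 0.600). Blood markers in oligodendrocytes summed to 240 to 381 CPM in TESS and 117 to 201 CPM in CON, all 5 of 5 detected, and the groups did not overlap. The 3 Schwann, fibroblast and ependymal lists stayed at 65.3 CPM or less in every sample. OPC markers in oligodendrocytes (3 of 3 detected) summed to 23.799 to 40.8 CPM in TESS and 18.1 to 23.797 CPM in CON, narrowly apart. The part of blood and OPC RNA in the oligodendrocyte result was not tested.

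Astrocytes, which support neurons and buffer transmitters, held the other call. Ndufa4 had 229, 285 and 280 CPM in TESS samples and 486, 547 and 603 CPM in CON samples, from 66 UMIs in TESS and 284 in CON. It fell by 1.05 ± 0.24 on the log2 scale (edgeR adjusted p = 0.0103), the only call among 49 members tested, where 0.195% of 2049 genes were called lower. TESS 1 was the lowest sample here, and inside batch 3 the difference was -1.23. The direction held under 13 of 13 alternatives, from -1.23 to -0.90, and the call under 6, with adjusted p from 0.00153 to 0.792. It was lost without TESS 1 (0.0824), TESS 3 (0.0676) or CON 3 (0.0696). Atp5g1 and Cox6a1 did not pass in astrocytes, at -0.26 ± 0.32 and -0.25 ± 0.26, and their groups overlapped. The smallest p among members higher in TESS was that of Atp5e, the epsilon subunit of ATP synthase (0.41 ± 0.34, adjusted p = 0.706), which ran from 0.07 without TESS 1 to 0.70 without TESS 3. Before adjustment 7 members were lower and 0 higher at p below 0.05, against 5.51% of genes lower. Every TESS sample lay below every CON sample for 5 of 49 members, against 7.52% of genes. In astrocyte nuclei pericyte markers summed to 134 to 175 CPM in TESS and 106 to 121 CPM in CON (3 of 5 detected). Fibroblast markers summed to 43.8 to 67.4 CPM in TESS and 24.9 to 33.5 CPM in CON (3 of 3 detected). OPC markers summed to 11.0 to 13.5 CPM in TESS and 16.8 to 33.2 CPM in CON (2 of 3 detected). Astrocyte markers summed to 8504 to 9063 CPM in TESS and 6144 to 6854 CPM in CON (4 of 4 detected), so none of these lists overlapped between the groups. The part of these markers in the result was not tested.

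In microglia, the resident immune cells, no member was called of 52 tested by edgeR or DESeq2, where edgeR called 0.16% of 2501 genes lower, but 11 were lower and 0 higher at unadjusted p below 0.05, against 5.84% of genes lower. In 12 of 52 members every TESS sample lay below every CON sample, against 8.76% of genes. Ndufa4 had 308, 175 and 169 CPM in TESS and 449, 364 and 717 CPM in CON (-1.11 ± 0.30, adjusted p = 0.0757). Atp5g1 had 154, 202 and 132 CPM in TESS and 229, 285 and 358 CPM in CON (-0.84 ± 0.29, adjusted p = 0.175), and Cox6a1 differed by -0.62 ± 0.27 (adjusted p = 0.332). These 3 did not overlap between the groups, and none passed. Uqcr11, a complex III subunit, had the smallest p of those higher in TESS (0.32 ± 0.30, adjusted p = 0.749). Astrocyte markers in microglia, 4 of 4 detected, summed to 485 to 527 CPM in TESS and 247 to 478 CPM in CON, and their part in the result was not tested. Cox6a1 ran from -1.09 without TESS 1 to -0.48 without TESS 2.

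Endothelial nuclei, 25 to 62 per sample, allowed 16 members to be tested. None was called by edgeR or DESeq2, where edgeR called 0.686% of 583 genes lower, and 1 was lower and 0 higher at unadjusted p below 0.05, near the 6.35% of genes lower. Cox8a had the smallest p, at 501, 431 and 293 CPM in TESS and 655, 624 and 690 CPM in CON (-0.80 ± 0.28, adjusted p = 0.193). Cox4i1, the widespread form of subunit 4, was the member nearest to no change (0.05 ± 0.27). Blood markers in this class ranged widely, from 632 to 7974 CPM in TESS and 139 to 2379 CPM in CON, and their part in the summed level was not tested. In OPC none of 19 members was called by edgeR or DESeq2, where edgeR called 0% of 1289 genes lower, and 1 was lower and 0 higher at unadjusted p below 0.05, near the 4.03% of genes lower. Ndufc2, in the membrane arm of complex I, had 145, 120 and 99.2 CPM in TESS and 278, 214 and 202 CPM in CON (-0.95 ± 0.37, adjusted p = 0.383), and Ndufa13 was 0.14 ± 0.30 (adjusted p = 0.935). In OPC Ndufa4 differed by -0.52 ± 0.29 (adjusted p = 0.630) with overlapping groups. Neuron markers in OPC, 4 of 4 detected, summed to 1178 to 1539 CPM in TESS and 994 to 1155 CPM in CON, and their part in these values was not tested.

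**Figure D2:**
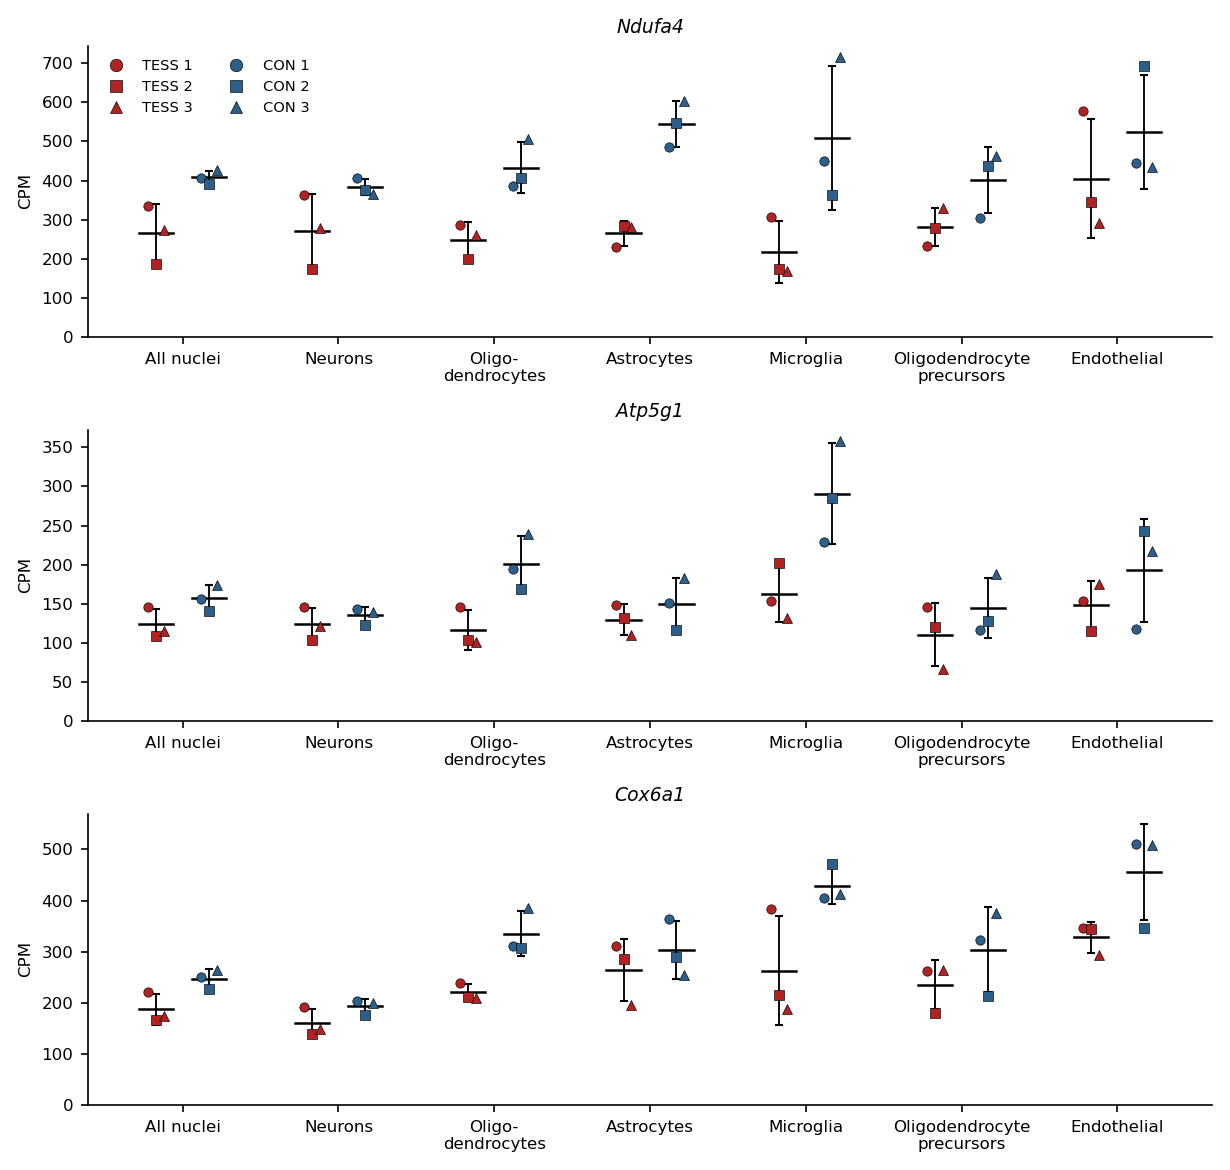
Levels of Ndufa4, Atp5g1 and Cox6a1 in CPM over all UMIs of a cell type, 1 panel per gene. Points are samples, with TESS left of CON, and bars show the mean and SD of 3 samples. In astrocytes the Ndufa4 values of TESS samples, 229 to 285 CPM, lie far from the CON values, 486 to 603 CPM, while in neurons TESS 1 sits just under the CON samples.

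In neurons, the cells in which the study looked for recruited subtypes, the members called in glia did not pass. No member was called of 76 tested by edgeR or DESeq2, where edgeR called 0.77% of 11686 genes lower. At unadjusted p below 0.05, 18 were lower and 1 higher, against 8.21% of genes lower, and every TESS sample lay below every CON sample for 12 of 76, against 8.61% of genes. The median member difference was -0.21 and the median of all genes about 0. Some marker lists separated the groups in neurons, and their part in the result was not tested. Pericyte markers (5 of 5 detected) summed to 17.3 to 20.6 CPM in TESS and 22.4 to 27.6 CPM in CON, OPC markers (3 of 3) to 16.2 to 20.3 CPM in TESS and 9.61 to 11.97 CPM in CON, and cholinergic markers (3 of 4) to 25.6 to 40.4 CPM in TESS and 16.4 to 20.5 CPM in CON. The 3 members with the smallest p were Ndufa4, Cox4i1 and Ndufc2. Ndufa4 had 363, 173 and 278 CPM in TESS and 406, 376 and 366 CPM in CON (-0.52 ± 0.16, adjusted p = 0.122). Without TESS 1 its difference was -0.80 and without TESS 2 it was -0.29. Cox4i1 had 451, 308 and 346 CPM in TESS and 488, 473 and 460 CPM in CON (-0.38 ± 0.13, adjusted p = 0.140). Ndufc2 had 161, 126 and 133 CPM in TESS and 199, 183 and 164 CPM in CON (-0.40 ± 0.13, adjusted p = 0.144). Atp5g1, one of the 3 members called in oligodendrocytes, differed little in neurons, at 146, 104 and 122 CPM in TESS and 144, 123 and 139 CPM in CON (-0.14 ± 0.14, adjusted p = 0.686). Cox6a1 differed by -0.28 ± 0.13 (adjusted p = 0.325). Members with a higher mean in TESS were led by Ndufb4, of the complex I membrane arm, at 19.4, 16.8 and 20.3 CPM in TESS and 14.7, 9.99 and 13.6 CPM in CON (0.54 ± 0.25, adjusted p = 0.321). Cox7c (0.33 ± 0.18, adjusted p = 0.427) and Atp5k, subunit e of ATP synthase (0.19 ± 0.18, adjusted p = 0.670), followed, and none passed.

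In all nuclei edgeR called no member of 79 tested, where it called 0.5% of 13391 genes lower. DESeq2 called 1 member, where it called 109 genes lower and 49 higher of the same 13391. At unadjusted p below 0.05, 27 were lower and 1 higher, against 8.29% of genes lower, and every TESS sample lay below every CON sample for 13 of 79, against 8.6% of genes. The smallest p were those of Ndufa4 (-0.65 ± 0.16, adjusted p = 0.0648), Cox5b, a zinc-binding subunit of complex IV (-0.72 ± 0.18, adjusted p = 0.0740), and Atp5j, coupling factor 6 of ATP synthase (-0.50 ± 0.14, adjusted p = 0.114). Cox5b had 38.4, 25.9 and 30.3 CPM in TESS and 50.7, 42.6 and 61.8 CPM in CON. Atp5j had 111, 78.1 and 92.3 CPM in TESS and 128, 118 and 145 CPM in CON. Both were separated between the groups, and neither passed. Atp5j overlaps Gabpa, which encodes an ETS-family factor, so its reads are uncertain in origin. Higher in TESS without passing were Cox7c (0.37 ± 0.15, adjusted p = 0.250), Cox7b2 (0.37 ± 0.41, adjusted p = 0.721, and 0.07 without CON 1) and Atp5g2 (0.15 ± 0.29, adjusted p = 0.841). Cox7c had 50.2, 52.7 and 61.3 CPM in TESS and 40.7, 44.6 and 37.4 CPM in CON, so its samples separated in the direction opposite to most members.

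By complex, the differences in all nuclei were widest in complex IV and near 0 in complex II. The median was -0.37 over 13 complex IV members tested, -0.27 over 8 of complex III, -0.25 over 37 of complex I, -0.20 over 17 of complex V and -0.01 over 4 of complex II. Ndufa4 was counted in complex I by its symbol and not in complex IV, where it is now placed. In oligodendrocytes complex IV had -0.53 and complex II -0.07, and in neurons -0.28 and -0.03. The order differed elsewhere: complex III was lower than complex IV in astrocytes (-0.45 and -0.36) and microglia (-0.56 and -0.49), and the 1 complex II member tested in OPC had -0.40. Inside batch 3 the all-nuclei median of complex IV was -0.03. Sdha, the flavoprotein of complex II and the member of that complex with the most UMIs, had 169, 155 and 143 CPM in TESS and 164, 127 and 149 CPM in CON (0.06 ± 0.13, adjusted p = 0.860). Cox4i1, with the most UMIs in complex IV, had 518, 388 and 404 CPM in TESS and 554, 535 and 566 CPM in CON (-0.37 ± 0.13, adjusted p = 0.176). Uqcr10 led complex III (-0.39 ± 0.17, adjusted p = 0.275) and Atp5o complex V (-0.43 ± 0.13, adjusted p = 0.129). Ndufa4 has the most UMIs among the Nduf genes. Cox4i1, Sdha and Ndufc2 each overlap another annotated gene, which leaves some of their reads uncertain in origin. Complex II serves the citric acid cycle as well as the respiratory chain. The difference between complexes was not tested.

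The lower median did not hold within batch 3 in the large classes. Over the same members, the batch 3 median was -0.01 in all nuclei (-0.27 with all samples), 0.07 in neurons (-0.21), -0.05 in oligodendrocytes (-0.36), -0.12 in astrocytes (-0.28), -0.18 in microglia (-0.38) and -0.10 in OPC (-0.29). In endothelial nuclei it was -0.50 over 15 members, with 13 of them below 0 (-0.45 over 16 with all samples). Of 79 members in all nuclei, 69 were below 0 with all samples and 42 inside batch 3. Batch 3 holds a single TESS sample, so these values rest on TESS 1. With all batches, the neuron median was -0.37 without TESS 1 and -0.10 without TESS 2, and that of all nuclei was -0.42 without TESS 1 and -0.17 without TESS 2. By gene span, in all nuclei the median was -0.27 in the 38 shorter and -0.27 in the 39 longer members with an annotated span. In neurons it was -0.18 in the shorter and -0.23 in the longer members, and in oligodendrocytes -0.30 and -0.38. The median span was 7.46 kb over members and 28.5 kb over the genes tested. The part of span in the differences was not tested. Members with and without the NRF1 letters had medians of -0.23 (n = 17) and -0.31 (n = 47) in all nuclei.

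**Figure D3:**
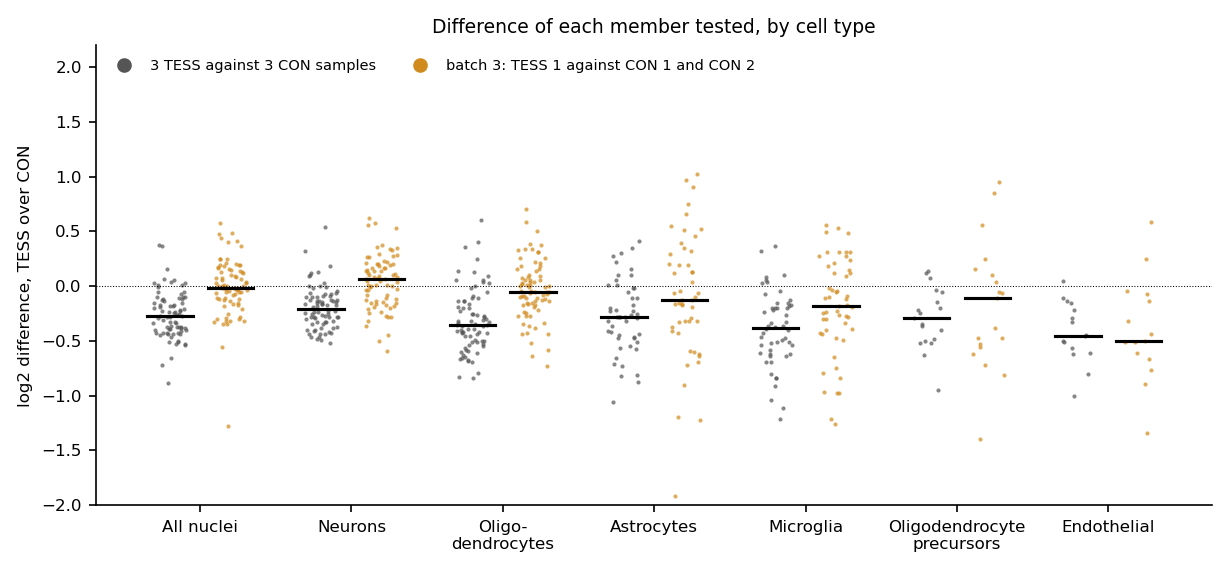
Each point is a member tested in a cell type, and the y axis gives log2 of TESS over CON. Grey points use 3 TESS against 3 CON samples and orange points TESS 1 against CON 1 and CON 2 of batch 3, and black lines are medians. The grey medians lie from -0.45 to -0.21, and the orange ones lie nearer 0 in every class but the endothelial one, at -0.50.

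Whether the difference in neurons departed from that in glia was tested gene by gene as an interaction in edgeR, with neurons set against each other type. No member passed in any of the 5 pairs, and DESeq2 was not run on them. Against oligodendrocytes 0.727% of 11144 genes were called in either direction. At unadjusted p below 0.05, 9 of 76 members had a higher difference in neurons and 1 a lower one, against 4.12% of genes higher. The nearest to passing was Atp5g1, with a difference 0.67 ± 0.18 higher in neurons (adjusted p = 0.0529, and 0.0746 to 0.245 under 7 alternatives). For Ndufa4 the neuron difference was 0.32 ± 0.17 above that in oligodendrocytes (adjusted p = 0.546) and 0.57 ± 0.25 above that in astrocytes (adjusted p = 0.728). Against the other types 4 members (astrocytes), 7 (microglia), 0 (OPC) and 2 (endothelial nuclei) had a higher difference in neurons at unadjusted p below 0.05 and 0 a lower one, of 77, 75, 76 and 77 tested. Over all genes the shares higher were 3.89% (astrocytes), 3.21% (microglia), 2.84% (OPC) and 2.84% (endothelial nuclei), and 0.0691%, 0.106%, 0.0635% and 0.0099% were called in either direction in the same order.

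Among the 38 neuron subtypes of the authors' annotation the summed level varied. The Spp1 subtype was highest, at 0.839 ± 0.134% of UMIs (SD, n = 6 samples, 72 nuclei), followed by Rorb-I (0.770 ± 0.117%) and V1/V2b/Stmn3 (0.755 ± 0.0714%). Tac2/Tacr3 (0.456 ± 0.0942%), motoneurons (labelled MN, 0.462 ± 0.0861%) and Pnoc (0.520 ± 0.107%) were lowest, and neighbours in the order overlapped. Motoneuron nuclei were low in share but not in amount, with 16.8 member UMIs per nucleus against 7.92 in Tac2/Tacr3 and 33.9 in Spp1. Subtypes with deeper nuclei tended to have higher shares (Spearman rho 0.55 over 24 subtypes, as a description, since all share the same 6 libraries). The 5 V1 and V1/V2b subtypes, named for ventral interneuron classes, lay between 0.701% and 0.755%. The 12 subtypes named for a neuropeptide gene (3 Tac2 subtypes, Cck/Cpne4, Crh, Grp, Npy, Nts, Pdyn, Pnoc, Tac1 and Trh) lay between 0.456% and 0.642%. Other subtypes lay in both ranges, such as CSF-N (0.745%) and Crabp1 (0.741%) in the first. In the second lay V2a/Slc17a6 (0.632%) and Grpr (0.545%), among others. Both groupings by name were made after the levels were seen, and the part of depth in them was not tested.

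Within subtypes the TESS mean was below the CON mean in 35 of 38, and in 23 of the 24 that had at least 10 nuclei in every sample and were tested. Subtypes share their libraries and are not independent. TESS 2 was the lowest of 6 samples in 19 of these 24, while TESS 1 lay above the mean of CON 1 and CON 2 in 13. Every TESS sample lay below every CON sample in 5 of 24, V1/Adam23, Nts, Tac1, Grpr and Pnoc. The subtypes given next were picked from these. In V1/Adam23, spinal inhibitory interneurons by their name, TESS samples had 0.763%, 0.534% and 0.640% and CON samples 0.833%, 0.774% and 0.779%. In Tac1 TESS samples had 0.537%, 0.427% and 0.522% and CON samples 0.580%, 0.601% and 0.632%. No member was called in any subtype over 313 member tests in edgeR, where 0.0828% of 31412 gene tests were called in either direction. Before adjustment 33 were lower and 4 higher at p below 0.05, where 4.43% of all gene tests were lower. In the 8 subtypes with at least 10 members tested the member median ran from -0.34 in Cdh3 to -0.21 in V2a/Slc17a6, and inside batch 3 it was above 0 in 5 of the 8. The widest medians were in sparse subtypes, -1.25 in Rorb over 2 members and 0.27 in Lxh1/Nxph1 over 3.

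**Figure D4:**
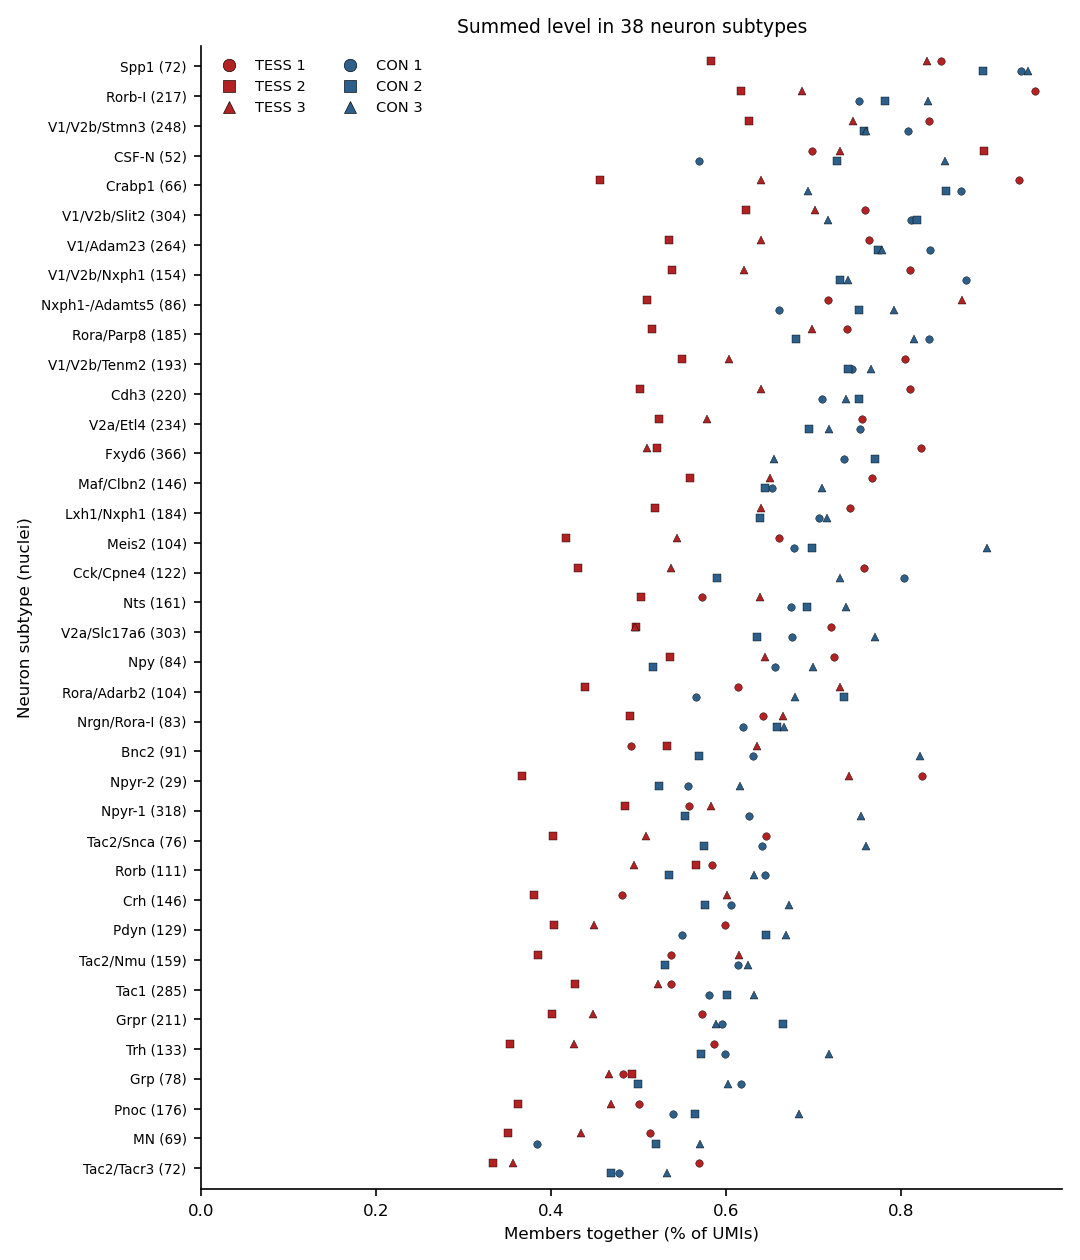
The x axis gives the share of UMIs on the 83 members in percent, for 38 neuron subtypes ordered by their mean, with the number of nuclei in brackets. Points are samples, TESS above CON in each row. Shares fall with the order, Spp1 at 0.839% on top and Tac2/Tacr3 at 0.456% at the bottom, and TESS 2 is the leftmost point in most rows.

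Genes that work beside the respiratory chain were counted in the same fits, and none of the 7 lists held a called gene in all nuclei, neurons or oligodendrocytes. In all nuclei the median difference was -0.18 over 43 assembly factors, -0.19 over 75 mitochondrial ribosomal proteins, -0.21 over 16 genes for cytochrome c, carriers and porins, -0.08 over 17 pyruvate dehydrogenase and citric acid cycle genes, -0.04 over 21 glycolysis genes, -0.08 over 81 cytosolic ribosomal proteins and 0.05 over 18 regulators of mitochondrial biogenesis. The member median was -0.27 and that of all genes about 0. The lists' lowest p values, none passing, included Bcs1l, an assembly factor of complex III, at 10.0, 6.47 and 5.69 CPM in TESS and 19.2, 12.9 and 17.8 CPM in CON (-1.13 ± 0.27, adjusted p = 0.0618). Mrpl42 of the mitochondrial ribosome had -0.60 ± 0.15 (adjusted p = 0.0788), the porin gene Vdac3 -0.47 ± 0.14 (adjusted p = 0.115), the glycolytic enolase Eno1 -0.46 ± 0.14 (adjusted p = 0.137) and Suclg1 of the citric acid cycle -0.42 ± 0.16 (adjusted p = 0.227). With a higher mean in TESS and not passing were Rpl35a of the cytosolic ribosome (0.79 ± 0.22, adjusted p = 0.103) and Lrpprc, which stabilises mitochondrial messenger RNA (0.36 ± 0.14, adjusted p = 0.230). Ribosomal protein genes have many near-identical pseudogene copies, so Rpl35a reads are uncertain in origin. At unadjusted p below 0.05, 14 of the 75 mitochondrial ribosomal genes, 6 of the 43 assembly factors and 6 of the 16 cytochrome c, carrier and porin genes were lower and 0 higher, against 8.29% of all genes lower, while 0 of the 18 regulators were lower and 2 higher. In neurons the same genes had the smallest p in 5 of the 7 lists. The other neuron leaders were Mrps10 (-0.66 ± 0.18, adjusted p = 0.0892) and Suclg2 (0.82 ± 0.37, adjusted p = 0.310). In neurons Bcs1l had 11.1, 7.48 and 5.08 CPM in TESS and 21.6, 14.6 and 19.6 CPM in CON (-1.17 ± 0.30, adjusted p = 0.0568).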

How the data were processed

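The authors deposited a table of UMI counts (whole numbers) for 19954 genes in 18514 nuclei, with metadata giving library, batch, cell type, neuron subtype and a mitochondrial fraction per nucleus. The deposited fraction gave whole mitochondrial UMIs in all 18514 nuclei (tolerance 1e-06), and mitochondrially encoded genes are not in the table. Cell Ranger 2.2.0, Seurat 3 and the builds mm10 and GRCm38 come from the submitters' processing notes. The sources used here do not give filters on nuclei, doublet removal, intron counting or strand.

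Counts were summed per sample and class. edgeR 4.0.16 (R 4.3.3; TMM, filterByExpr with a minimum count of 10, quasi-likelihood F test, no batch term) was fitted to all genes of a class, and SE is the difference over the square root of F. CPM use all UMIs of the class. Interaction fits took sample as a block. The tests were checked on simulated data with a fixed spread between samples and no batches. That check cannot show how the tests behave with the batches of these samples. Of the members, 81 matched 1 gene of GENCODE vM21, and 36 overlap another gene, so their reads are uncertain in origin.

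Members, lists and tests were chosen with earlier results of these data known. Named members are Ndufa4, Atp5g1 and Cox6a1, those called, those with the smallest p per class, the most counted per complex and the tissue isoforms. Alternatives were other normalization, DESeq2 1.42.0, no filter, each sample left out, replicate number, batch, batch 3 alone, equal cell composition and nuclei of at most 0.5% mitochondrial UMIs.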

Additional observations from a re-analysis of the deposited data

Results flagged for a closer look

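Ndufa9, a complex I subunit, moved in opposite directions in the 2 largest classes: in neurons every TESS sample lay below every CON sample (24.9, 21.8 and 30.5 CPM in TESS, 38.6, 30.7 and 31.8 CPM in CON, log2 difference -0.44), and in oligodendrocytes every TESS sample lay above every CON sample (49.1, 43.3 and 51.7 CPM in TESS, 33.2, 40.9 and 33.3 CPM in CON, log2 difference 0.36). The edgeR interaction test of this difference gave -0.78 ± 0.29 (SE, neurons minus oligodendrocytes), which did not pass (adjusted p = 0.313), and neither class passed alone (adjusted p = 0.305 in neurons and 0.532 in oligodendrocytes). A neighbouring gene overlaps Ndufa9, so its reads are uncertain in origin.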

How the results depend on the processing

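Counts of called members changed with the settings. In all nuclei 0 became 1 with the DESeq2 Wald test, 2 with no filter, 1 in nuclei of low mitochondrial fraction, 4 at equal composition, and 0 to 1 with a library left out. In neurons it became 2 with no filter and 0 to 1 with a library left out, and in microglia 1 and 0 to 1. Over all genes, lower and higher calls with no filter were 169 and 81 of 19904 in all nuclei and 248 and 87 of 19522 in neurons. They were 123 and 147 of 17845 in oligodendrocytes and 11 and 16 of 15253 in microglia. In all nuclei they were 109 and 49 of 13391 with DESeq2 and 87 and 37 of 12830 at low mitochondrial fraction. At equal composition they were 148 and 84 of 12270. In oligodendrocytes 3 became 9 with no filter, 0 inside batch 3 and with batch as a term, and 0 to 5 with a library left out. In astrocytes 1 became 0 inside batch 3, with batch as a term, with the DESeq2 Wald test and in nuclei of low mitochondrial fraction, and 0 to 1 with a library left out. OPC, endothelial, subtype and interaction counts stayed at 0 under every alternative run. Batch as a term repeats the comparison of TESS 1 with CON 1 and CON 2. With a library left out, lower calls over all genes were 9 to 83 of 13500 to 13903 in all nuclei. They were 12 to 79 of 11757 to 12185 in neurons and 5 to 49 of 9173 to 9305 in oligodendrocytes. They were 0 to 8 of 1971 to 2730 in astrocytes and 0 to 12 of 2509 to 3195 in microglia. Higher calls ran from 9 to 41, 7 to 42, 27 to 115, 7 to 14 and 1 to 36 in the same order. The replicate numbers did not pair the samples (correlations of same numbers -0.15, -0.01 and 0.02). The replicate block gave 1 member call in all nuclei, 1 in neurons, 5 in oligodendrocytes, 1 in astrocytes and 2 in microglia. Over all genes it called 98 lower and 41 higher of 13391 in all nuclei and 123 and 46 of 11686 in neurons. In oligodendrocytes it called 71 lower and 146 higher of 8796. The counts were 8 and 16 of 2049 in astrocytes and 35 and 66 of 2501 in microglia.

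Medians inside batch 3, over the members tested there, were -0.0149 in all nuclei, 0.0699 in neurons, -0.0497 in oligodendrocytes, -0.164 in microglia and -0.0295 in OPC. With batch as a term they were -0.0102 in all nuclei, 0.0685 in neurons, -0.0422 in oligodendrocytes, -0.169 in microglia, -0.0955 in OPC and -0.097 in astrocytes. With no filter they were -0.43 in astrocytes and -0.60 in endothelial nuclei. With a library left out they ran from -0.42 to -0.17 in all nuclei, -0.37 to -0.10 in neurons, -0.51 to -0.25 in oligodendrocytes, -0.36 to -0.21 in astrocytes, -0.54 to -0.33 in microglia, -0.32 to -0.13 in OPC and -0.62 to -0.41 in endothelial nuclei. In nuclei of low mitochondrial fraction the endothelial mean was 1.09% in TESS and 1.37% in CON, and no endothelial member could be tested. The cause of these changes was not tested.

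Of 485 values of named members under alternatives, 13 reversed, all in classes where that member was not called. Atp5g1 reversed inside batch 3 and with batch as a term in neurons (0.102 and 0.101) and astrocytes (0.0403 and 0.0658). Cox6a1 in astrocytes was 0.0203 in nuclei of low mitochondrial fraction. Cox4i1 in endothelial nuclei was -0.43 inside batch 3, -0.40 with batch as a term, -0.0431 with no filter and -0.23 to 0.18 with a library left out. Atp5g2 in all nuclei ran from -0.076 to 0.405 and Atp5k in neurons from -0.0095 to 0.314 with a library left out. The number of nuclei (674 and 221) limits OPC and endothelial nuclei most, where 19 and 16 of 83 members could be tested.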
